A study of Mus musculus with 6 samples.

Results

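Heat shock proteins and DnaJ proteins are molecular chaperones, which bind unfolded or partly folded proteins and help them fold, assemble, cross membranes or reach degradation. The genes described here are the 74 of 24318 listed genes whose symbol begins with Hsp followed by a, b, d, e, h or a digit, or with Dnaja, Dnajb or Dnajc. They were measured as RNA in whole livers of C57BL/6 mice carrying VEcadCreERT2 and TAK1flox/flox, that is, loxP-flanked alleles of the kinase gene Map3k7 (TAK1) and a tamoxifen-inducible Cre recombinase under the endothelial VE-cadherin promoter. Knockout livers (3 libraries) came from mice of this genotype given tamoxifen. Control livers (3 libraries) came from mice with the same alleles that received no treatment, so that the loss of TAK1 and tamoxifen cannot be told apart. By symbol, 26 of the members are heat shock proteins, 45 are DnaJ proteins and 3 match only by name (Hspbp1, Hspbap1 and Hspb11).

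The families work together. HSP70 proteins clasp exposed hydrophobic stretches in a cycle driven by ATP, DnaJ proteins (also called HSP40) deliver clients and trigger ATP hydrolysis through their J domain, and HSP110 proteins exchange the spent nucleotide. HSP90 proteins finish the maturation of kinases and steroid receptors, the HSP60 chaperonin encloses proteins inside mitochondria under its lid HSP10, and small HSPs hold unfolded chains without ATP. In the cytosol, heat and unfolded proteins activate the transcription factor HSF1, which binds repeats of the unit nGAAn called heat shock elements. In the endoplasmic reticulum, unfolded proteins activate a separate response that acts on the ER stress element. Hepatocytes, which secrete most plasma proteins, contain abundant ER chaperones.

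Knockout livers held less RNA of a group of cytosolic and mitochondrial chaperones, among them Hsph1, Dnaja1, both cytosolic HSP90 genes and the chaperonin genes Hspd1 and Hspe1. The calls of Dnaja1, both HSP90 genes and Hspe1 were lost in some fits with 1 library left out. Hspa2 and the ER protein gene Dnajc10 were higher, and the most abundant ER chaperones did not pass the test. Of the 74 members, 60 reached a mean of 0.5 FPKM over the 6 libraries and were tested. FPKM are fragments scaled by transcript length and by library size, and a gene was called at a limma adjusted p under 0.05 (Benjamini-Hochberg over 11842 genes). Of these 60, 12 (20.0%) were lower in knockout livers, against 13.0% of all tested genes, and 2 (3.33%) were higher, against 14.1% of all tested genes. In either direction 23.3% of the members were called, against 27.0% of all tested genes, a share no larger than the background. Fold changes below 0 were found for 41 members (68.3%), against 50.0% of all tested genes, and the median log2 fold change was -0.14 over the members and -0.0007 over all tested genes. The 3 libraries of a group did not overlap those of the other for 18 of the 60 members (30.0%), against 43.5% of all tested genes. Without control 1 the members called lower numbered 5, and without control 2 they numbered 7. Calls also dropped over all tested genes in these fits, to 996 lower without control 1 and 943 lower without control 2. Over all tested genes 1669 were higher and 1534 lower. With every library rescaled to the same summed FPKM, a step that shifted the all-gene median to -0.11 (log2), these were 1356 and 2081, and 1 member was higher and 16 were lower.

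Among 21 tested heat shock proteins, 9 fell and 1 rose, and the median log2 fold change was -0.47. Among 37 tested DnaJ proteins, 3 fell and 1 rose, and the median was -0.13. Over all tested genes 13.0% fell and 14.1% rose, the background for each class and compartment with all 6 libraries. Heat shock proteins that fell numbered 3 after leaving out control 1, 5 after leaving out control 2, and 6 after leaving out control 3, knockout 1 or knockout 2. Genes that fell over all tested genes numbered 996 without control 1, 943 without control 2 and 1497 without control 3. They numbered 1235 without knockout 1 and 1264 without knockout 2, against 1534 with all 6 libraries. By compartment, the cytosol and nucleus held 8 of the members that fell and 1 that rose among 32 tested, and mitochondria held 3 that fell among 10. Leaving out control 1 left 3 cytosolic or nuclear members and 1 mitochondrial member called lower, leaving out control 2 left 5 and 1, and leaving out knockout 2 left 5 and 4. The endoplasmic reticulum held 1 that rose and none that fell among 14. The summed FPKM of mitochondrial members was 278, 299.8 and 309.9 in knockout livers and 431, 402 and 363 in control livers. Cytosolic and nuclear members summed to 692, 608 and 731 FPKM in knockout livers and 938, 902 and 897 FPKM in control livers. In both sums every knockout library lay below every control library. The same held for heat shock proteins alone in both, and for all cytosolic and nuclear DnaJ proteins. Mitochondrial DnaJ proteins summed to 90.4, 104.1 and 101.3 FPKM in knockout and 125.3, 119.3 and 99.0 FPKM in control livers, with overlap. The DnaJ C family alone in the cytosol and nucleus summed to 76.7, 71.4 and 71.7 FPKM in knockout livers. In control livers it summed to 63.6, 67.0 and 64.7 FPKM, below every knockout library. ER members summed to 1987, 1197 and 2103 FPKM in knockout livers and 1705, 1395 and 1676 FPKM in control livers, and those groups overlapped. Differences between compartments were not tested.

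**Figure D1:**
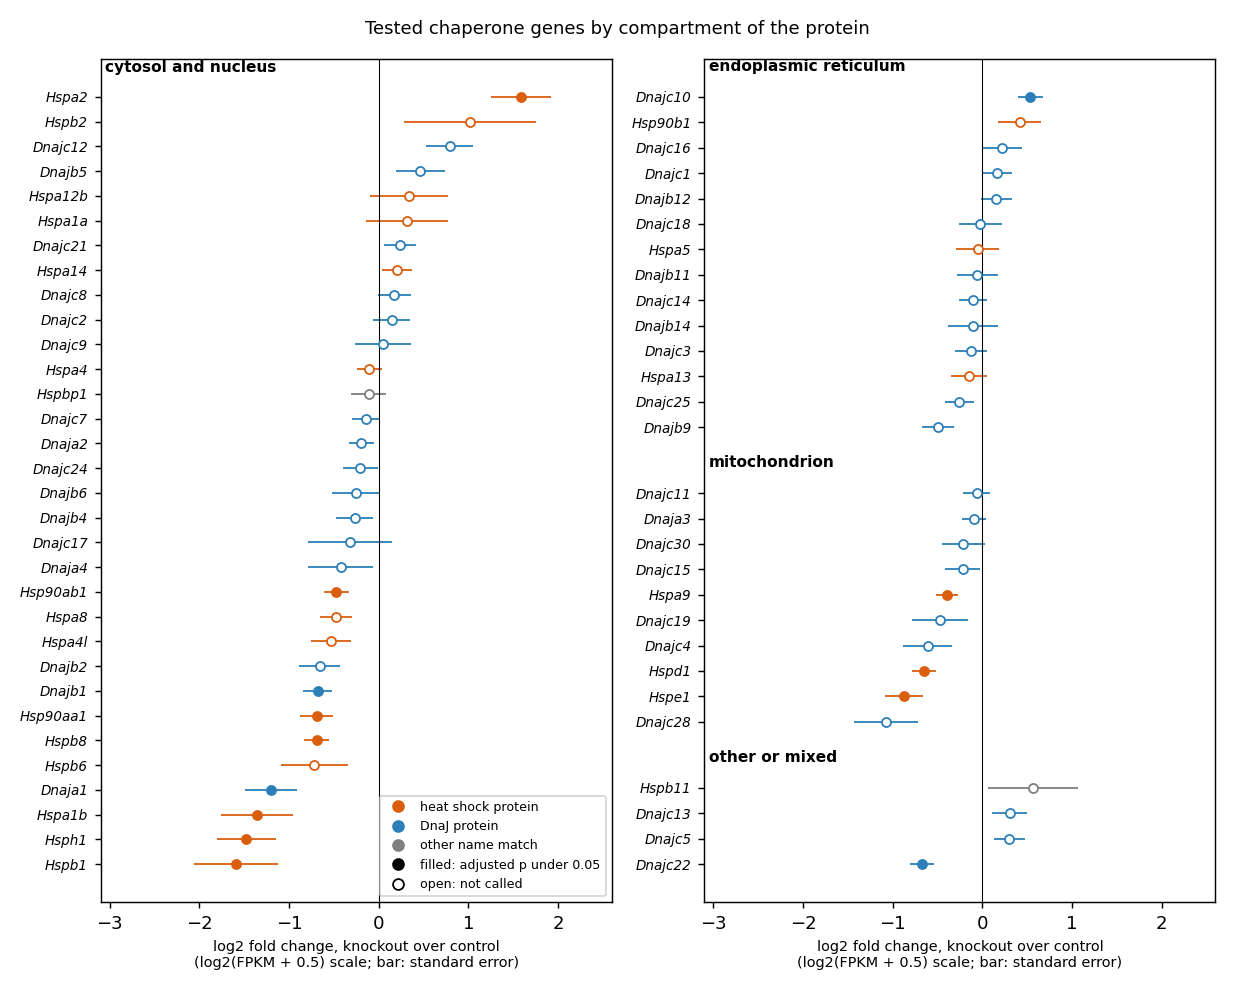
The plot shows the log2 fold change of each tested member, knockout over control on the log2(FPKM + 0.5) scale, grouped by compartment, with bars of 1 standard error. Called members are filled, and 8 lie below 0 and 1 above it in the cytosol and nucleus, 3 lie below 0 in the mitochondrion, 1 lies above 0 in the endoplasmic reticulum and 1 (Dnajc22) lies below 0 elsewhere.

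Libraries and groups differed in ways that bear on every value below. Map3k7, the targeted gene, measured 9.28, 9.31 and 7.35 FPKM in knockout livers and 8.498, 9.02 and 9.14 FPKM in control livers (log2 fold change -0.04 ± 0.16 SE, limma adjusted p = 0.868, exact two-sided permutation p = 1, where 0.1 is the smallest possible). Because Map3k7 is not restricted to endothelium, and because RNA from a recombined allele can still be counted, the level of Map3k7 is no check of the labels. Read totals are not given, and relative depth, read from the step size among low values, ranged from 0.920 to 1.08 with control 1 set to 1. Summed FPKM of 6 hepatocyte markers ranged from 8953 to 11363 in knockout livers and from 14275 to 19804 in control livers, with 2 of the 6 called lower, 0 called higher and none at 0. Neutrophil markers summed to 1674 to 1759 FPKM in knockout livers and 33.9 to 71.1 FPKM in control livers (6 of 6 higher). Sinusoidal endothelial markers summed to 15.6 to 20.8 FPKM in knockout livers and 108 to 170 FPKM in control livers (5 of 6 lower). Markers of monocytes and macrophages (5 of 6), of stellate cells and smooth muscle (3 of 6) and of B and T cells (3 of 4) also included genes called higher, and 1 of 4 cholangiocyte markers was called in each direction. In bulk tissue, fewer cells of a type and less RNA per cell cannot be told apart, and the part of these shifts in the chaperone values was not tested.

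Sequences were examined in windows of 250 bases before to 50 after the annotated start (RefSeq, GRCm38.p6; the authors' values rest on mm9). They were available for 60 of the 74 members. The stretches shown first carry heat shock elements of genes that fell, with the matched units in capitals (2 overlapping 3-unit matches in Hspe1, a 3-unit match in the second stretch of Hsph1, 2 units in the others), the first transcribed base counted as 1, and all sequences given 5′ to 3′ on the gene's strand. The element of Hspe1 lies between the RefSeq starts of Hspe1 and Hspd1, which are transcribed away from each other, and the window of each gene holds it. In GENCODE the Hspe1 stretch lies within the span of Hspd1 and the first Hsph1 stretch partly within that of Hsph1, both outside the exons examined. The second Hsph1 stretch lies in an exon of Hsph1, and the Hspa1b stretch between genes. The Dnaja1 stretch lies in an exon of Gm6297 and also within the GENCODE span of Dnaja1, which begins before the RefSeq start used here.
Hspe1, chr1:55088025-55088111, plus strand, 123 to 37 bases before the start: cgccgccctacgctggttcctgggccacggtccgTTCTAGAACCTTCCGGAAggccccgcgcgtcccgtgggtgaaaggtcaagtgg
Hsph1, chr5:149636339-149636404, minus strand, 68 to 3 bases before the start: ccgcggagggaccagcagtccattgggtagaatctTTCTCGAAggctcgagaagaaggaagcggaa
Hsph1, chr5:149636288-149636300, minus strand, bases 37 to 49 of the transcript: TTCTGGAAAGTTC
Hspa1b, chr17:34959300-34959377, minus strand, 139 to 62 bases before the start: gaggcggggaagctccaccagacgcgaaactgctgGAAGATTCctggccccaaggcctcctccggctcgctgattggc
Dnaja1, chr4:40722334-40722361, plus strand, 134 to 107 bases before the start: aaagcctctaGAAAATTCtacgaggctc

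The second set carries the ER stress element, CCAAT and CCACG separated by 9 bases, in capitals, from the 3 members that hold it, none of which was called. In Hsp90b1 the match lies on the opposite strand, and the nearer of its 2 matches is shown. GENCODE places the Hspa5 stretch in an exon of Hspa5 and the others between genes.
Hspa5, chr2:34772020-34772048, plus strand, 70 to 42 bases before the start: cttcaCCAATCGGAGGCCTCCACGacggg
Hsp90b1, chr10:86705510-86705586, minus strand, 142 to 66 bases before the start: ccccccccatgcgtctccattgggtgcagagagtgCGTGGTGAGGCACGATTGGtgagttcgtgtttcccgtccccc
Dnajc3, chr14:118937792-118937880, plus strand, 140 to 52 bases before the start: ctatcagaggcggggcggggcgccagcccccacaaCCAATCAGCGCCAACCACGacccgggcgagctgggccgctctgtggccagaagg

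Hsph1, the main inducible HSP110 nucleotide exchange factor, had the largest fall among members that averaged at least 5 FPKM. It measured 18.4, 6.79 and 18.5 FPKM in knockout livers, against 39.4, 35.4 and 38.8 FPKM in control livers. All knockout libraries were below all controls, and knockout 2 was the lowest. Hsph1 (chromosome 5, 149614287 to 149636376 in GRCm38) averaged 14.6 ± 6.73 FPKM in knockout and 37.9 ± 2.19 FPKM in control livers (SD, n = 3 libraries each), a mean lower by 61.6%. The log2 fold change of Hsph1 was -1.48 ± 0.33 (limma adjusted p = 0.00987). Hspa4l, a related HSP110 protein, measured 7.49, 6.23 and 4.18 FPKM in knockout and 8.20, 9.79 and 8.01 FPKM in control livers. Its groups did not overlap either, but it did not pass the test (log2 fold change -0.53 ± 0.22, limma adjusted p = 0.106). Hspa4, the constitutive HSP110 protein, measured 26.6, 29.1 and 32.1 FPKM in knockout and 33.9, 28.3 and 32.3 FPKM in control livers, with overlapping groups (log2 fold change -0.10 ± 0.14, limma adjusted p = 0.631).

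Hspa1b, one of the pair of stress-inducible cytosolic HSP70 genes, was lower in knockout livers at 5.50, 1.19 and 3.46 FPKM, against 6.70, 9.60 and 8.82 FPKM in control livers. The groups did not overlap, and knockout 2 was again the lowest. Hspa1b had a log2 fold change of -1.36 ± 0.40 (limma adjusted p = 0.0334), or -0.85 without knockout 2. The call was lost without control 1, control 2, control 3 or knockout 3 (limma adjusted p of 0.0553 to 0.105), with no minimum level (0.0648) and without the variance trend (0.0564). Its near-identical copy Hspa1a measured 0.460, 0.513 and 2.09 FPKM in knockout and 0.480, 1.16 and 0.295 FPKM in control livers, with overlapping groups and knockout 3 highest (log2 fold change 0.32 ± 0.46, limma adjusted p = 0.648). Reads of such copies can be divided between them by the authors' counting, so the split is uncertain. Hspa1a and Hspa1b together summed to 5.96, 1.71 and 5.55 FPKM in knockout and 7.18, 10.8 and 9.12 FPKM in control livers, which do not overlap.

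Hspa2, an HSP70 protein best known for its role in male germ cells, was the only heat shock protein called higher. It measured 3.36, 4.72 and 5.83 FPKM in knockout livers and 0.537, 1.64 and 1.62 FPKM in control livers. Every knockout library lay above every control library. Hspa2 had a log2 fold change of 1.59 ± 0.33 (limma adjusted p = 0.0074) and was called in each fit run. All 4 male germ cell markers were at 0 in all 6 libraries. Hspa8, the constitutive cytosolic HSP70, measured 76.0, 61.9 and 102 FPKM in knockout and 109.5, 109.9 and 107.7 FPKM in control livers. The controls lay close together and above all knockouts, of which knockout 3 came nearest. Hspa8 did not pass the test (log2 fold change -0.47 ± 0.18, limma adjusted p = 0.0793), and it was called without knockout 3 (log2 fold change -0.67, limma adjusted p = 0.0154). Hspa14, which acts at the ribosome, measured 9.91, 8.26 and 8.20 FPKM in knockout and 7.37, 8.46 and 6.91 FPKM in control livers, with overlap (limma adjusted p = 0.414).

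Both cytosolic HSP90 genes fell. Hsp90aa1, the inducible form, measured 12.2, 9.06 and 13.0 FPKM in knockout and 21.4, 16.5 and 18.1 FPKM in control livers, without overlap. Hsp90aa1 had a log2 fold change of -0.69 ± 0.18 (limma adjusted p = 0.0204), and the call was lost without control 1 (limma adjusted p = 0.0826) or knockout 2 (limma adjusted p = 0.0539). Hsp90ab1, the constitutive form and the most abundant cytosolic member, measured 288, 238 and 296 FPKM in knockout and 392, 364 and 379 FPKM in control livers. Again all knockouts were below all controls. Its log2 fold change was -0.47 ± 0.14 (limma adjusted p = 0.0324), and the call held without knockout 3 but was lost without any other single library (limma adjusted p of 0.0573 to 0.104), with upper quartile scaling (0.0522) and without the variance trend (0.0753).

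Among small HSPs, Hspb8, which works with BAG3 in the disposal of misfolded proteins, was the most abundant. It measured 70.0, 69.2 and 56.7 FPKM in knockout livers and 102, 116 and 98.8 FPKM in control livers. No library overlapped, and the spread within each group was small beside the gap. Hspb8 had a log2 fold change of -0.69 ± 0.14 (limma adjusted p = 0.00647) and was called in each fit run. Hspb1 (HSP27), an inducible small HSP, measured 0.556, 0.617 and 1.25 FPKM in knockout and 5.19, 1.20 and 5.35 FPKM in control livers. Control 2 was within the knockout range, so the groups overlapped. Its log2 fold change was -1.59 ± 0.47 (limma adjusted p = 0.0327), and the call was lost without control 1, control 3, knockout 1 or knockout 2 (limma adjusted p of 0.0812 to 0.121), with no minimum level (0.0624) and with library weights (0.0613). Hspb6 (HSP20), best known from muscle, measured 1.05, 3.51 and 3.57 FPKM in knockout and 4.38, 3.41 and 5.41 FPKM in control livers, with overlap (limma adjusted p = 0.186). Hspb2 was listed at 0 in knockout 1, control 1 and control 3 and reached 3.52 FPKM in knockout 2, and 30.2% of its exonic bases are shared with Cryab on the opposite strand. Small HSPs are also muscle proteins, and the 5 striated muscle markers summed to 0 to 0.368 FPKM in knockout and 0 in control livers, 3 of them at 0 in all 6 libraries. Stellate cell and smooth muscle markers summed to 55.3 to 122.6 FPKM in knockout and 19.0 to 21.5 FPKM in control livers (3 of 6 higher). The part of muscle cells in the small HSP values was not tested.

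**Figure D2:**
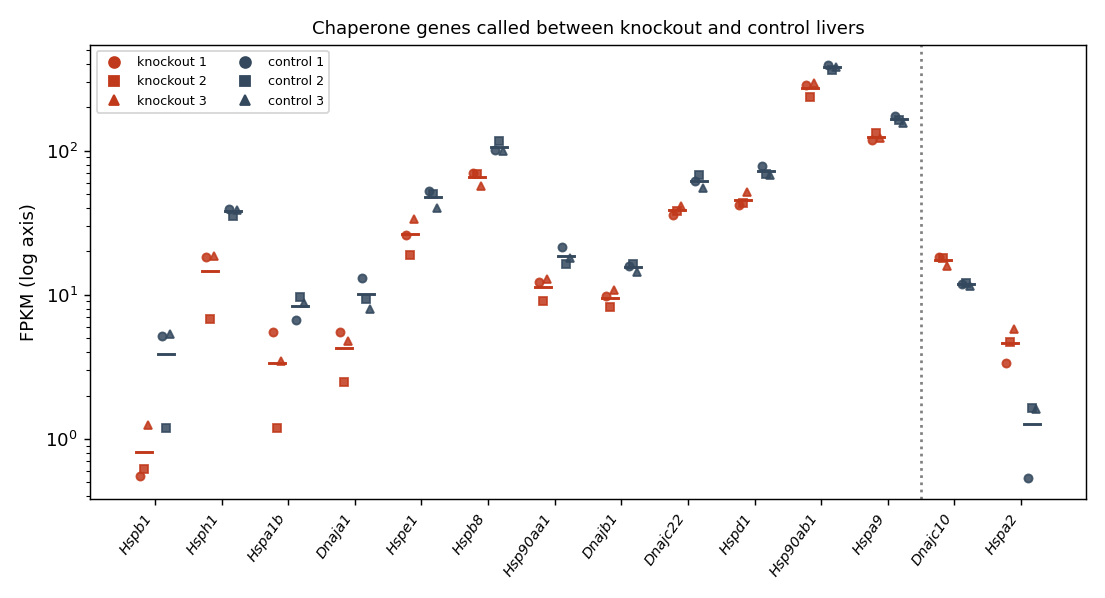
The plot shows FPKM on a log axis for the 14 called members, with knockout libraries left of control libraries a bar at each group mean, and a dotted line between the 12 that were lower and the 2 that were higher. The groups do not overlap except for Hspb1, whose control 2 (1.20 FPKM) lies below knockout 3 (1.25 FPKM).

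Among the cytosolic DnaJ proteins, Dnaja1 and Dnajb1, partners of HSP70, fell. Dnaja1 measured 5.55, 2.47 and 4.77 FPKM in knockout and 13.1, 9.38 and 7.995 FPKM in control livers, without overlap and with knockout 2 lowest. Dnaja1 had a log2 fold change of -1.20 ± 0.29 (limma adjusted p = 0.0146), lost without control 1 (limma adjusted p = 0.0587). It shares 10.5% of its exonic bases with Smu1 on the opposite strand, and the sources used here do not state whether counting used strand. Dnajb1, the main inducible HSP40, measured 9.78, 8.20 and 10.8 FPKM in knockout and 15.8, 16.4 and 14.5 FPKM in control livers. These groups were well apart. Dnajb1 had a log2 fold change of -0.68 ± 0.16 (limma adjusted p = 0.0128), lost without control 2 (limma adjusted p = 0.0563).

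The other cytosolic DnaJ proteins did not pass the test. Dnajb2, which guides clients to the proteasome, came closest to the threshold among those that were lower. It measured 16.3, 11.5 and 19.2 FPKM in knockout and 31.1, 23.7 and 20.1 FPKM in control livers, without overlap (log2 fold change -0.66 ± 0.22, limma adjusted p = 0.0554), and was called without control 3 or without knockout 3. Dnaja2, a constitutive partner of HSP70, measured 31.7, 39.2 and 32.2 FPKM in knockout and 40.1, 37.2 and 40.6 FPKM in control livers, with overlap (limma adjusted p = 0.339). Dnajb4 measured 14.6, 10.02 and 17.3 FPKM in knockout and 17.7, 15.2 and 16.8 FPKM in control livers, and only knockouts 1 and 2 were below all controls (limma adjusted p = 0.363). Dnajc12, a J protein that assists aromatic amino acid hydroxylases in humans, was on the opposite side at 18.6, 9.27 and 14.3 FPKM in knockout and 7.16, 9.79 and 6.28 FPKM in control livers. Knockout 2 was within the control range, and Dnajc12 narrowly missed the threshold (log2 fold change 0.79 ± 0.26, limma adjusted p = 0.0514). It was called higher without knockout 2 (log2 fold change 1.05, limma adjusted p = 0.0124). With all libraries it was called higher with a pseudocount of 1, a minimum mean of 1 FPKM or upper quartile scaling. A robust variance model and library weights called it too (limma adjusted p of 0.0322 to 0.0499 over these fits).

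The remaining tested cytosolic and nuclear J proteins overlapped between groups, except Dnajb5. Dnajc7, a TPR co-chaperone that binds HSP70 and HSP90, measured 18.5, 17.2 and 16.2 FPKM in knockout and 20.0, 21.4 and 16.1 FPKM in control livers. Dnajc21, which acts in ribosome assembly, measured 15.0, 13.9 and 11.4 FPKM in knockout and 10.1, 10.4 and 13.6 FPKM in control livers. Dnajb6, which suppresses protein aggregation, measured 4.36, 6.51 and 7.33 FPKM in knockout and 8.37, 8.97 and 4.91 FPKM in control livers. For Dnajc7 control 3 lay below all knockouts and the other controls above them, and for Dnajc21 and Dnajb6 control 3 lay among the knockouts, with limma adjusted p of 0.553 for Dnajc7, 0.375 for Dnajc21 and 0.517 for Dnajb6. Dnajb5 measured 1.70, 2.52 and 1.28 FPKM in knockout and 1.18, 1.02 and 1.27 FPKM in control livers, with a narrow gap between the groups (limma adjusted p = 0.247). Dnaja4, Dnajc2, Dnajc8, Dnajc9, Dnajc17 and Dnajc24, with roles that include histone handling (Dnajc9) and splicing (Dnajc8), were not called.

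All 10 mitochondrial members had a log2 fold change below 0 (9 of 10 after upper quartile scaling, without control 1 or without control 2), and the 3 that fell are the core of matrix protein folding. Hspd1, the HSP60 chaperonin, measured 42.2, 43.3 and 51.4 FPKM in knockout and 78.5, 68.5 and 68.3 FPKM in control livers. Its lid Hspe1 (HSP10) measured 26.0, 18.9 and 33.8 FPKM in knockout and 52.4, 50.1 and 40.1 FPKM in control livers. For both genes every knockout library was below every control library. The log2 fold change was -0.65 ± 0.14 for Hspd1 (limma adjusted p = 0.0079) and -0.87 ± 0.21 for Hspe1 (limma adjusted p = 0.0145). Hspd1 was called in each fit run, and Hspe1 was lost without control 1 or control 2 (limma adjusted p = 0.0563 and 0.0572). The genes lie head to head on chromosome 1, Hspd1 at 55077835 to 55088243 on the minus strand and Hspe1 at 55088132 to 55091307 on the plus strand (GRCm38), so that their annotated 5′ ends overlap, and they share the element shown above.

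Hspa9 (mortalin), the mitochondrial HSP70 that also pulls proteins through the inner membrane, measured 119, 133 and 123 FPKM in knockout and 175, 165 and 155 FPKM in control livers. The groups stood apart, with a log2 fold change of -0.40 ± 0.12 (limma adjusted p = 0.043). The call of Hspa9 was lost without control 1, control 2, knockout 1 or knockout 3 (limma adjusted p of 0.092 to 0.146), with upper quartile scaling (0.0729) and without the variance trend (0.102).

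The 7 mitochondrial J proteins did not pass the test. Dnaja3, the J partner of mortalin, measured 36.6, 44.0 and 41.8 FPKM in knockout and 43.1, 45.0 and 42.3 FPKM in control livers, with overlap (log2 fold change -0.09 ± 0.13, limma adjusted p = 0.639). Dnajc15, an inner membrane J protein linked to import, measured 25.0, 25.7 and 24.1 FPKM in knockout and 36.4, 31.4 and 21.5 FPKM in control livers. Control 3 was the lowest of all for Dnajc15 (limma adjusted p = 0.435). Dnajc30 measured 12.3, 11.9 and 15.3 FPKM in knockout and 21.3, 15.5 and 10.7 FPKM in control livers, with overlap (limma adjusted p = 0.55), and 26.2% of its exonic bases are shared with Bud23 on the opposite strand. Dnajc28 measured 0.504, 0.703 and 1.43 FPKM in knockout and 2.90, 3.01 and 1.34 FPKM in control livers, overlapping through control 3. Dnajc28 lay just outside the threshold (log2 fold change -1.08 ± 0.36, limma adjusted p = 0.0504). Dnajc4, Dnajc11 (an inner membrane organizing protein) and Dnajc19 (part of the import motor) had log2 fold changes of -0.61, -0.06 and -0.47 and were not called.

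The ER chaperone genes Hspa5 and Hsp90b1 were the most abundant members, and Hspa5, Dnajb11, Dnajc3 and Hspa13 were lowest in knockout 2. Hspa5 (BiP), the HSP70 of the ER lumen, measured 825, 499 and 997 FPKM in knockout and 831, 674 and 819 FPKM in control livers. The knockouts spanned the controls, with knockout 2 below and knockout 3 above all of them (log2 fold change -0.05 ± 0.24, limma adjusted p = 0.895). Dnajb11, a soluble partner of BiP, followed the same order at 79.2, 50.7 and 98.5 FPKM in knockout and 85.9, 67.7 and 76.5 FPKM in control livers (limma adjusted p = 0.881). Dnajc3, a BiP partner that also restrains the kinase PERK, measured 95.5, 61.5 and 86.9 FPKM in knockout and 91.7, 83.7 and 86.6 FPKM in control livers (limma adjusted p = 0.633). Only knockout 2 was below the controls for Dnajc3. Hspa13, a microsomal HSP70 protein, measured 16.4, 10.03 and 14.9 FPKM in knockout and 14.7, 13.6 and 16.8 FPKM in control livers, again with knockout 2 lowest (limma adjusted p = 0.641).

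Hsp90b1 (GRP94), the HSP90 of the ER, was named after its values were seen. It measured 852, 455 and 778 FPKM in knockout and 551, 422 and 545 FPKM in control livers. Knockouts 1 and 3 were above all controls and knockout 2 was among them. Hsp90b1 did not pass the test (log2 fold change 0.42 ± 0.24, limma adjusted p = 0.233), but without knockout 2 the log2 fold change was 0.70 (limma adjusted p = 0.0223). It shares 14.7% of its exonic bases with 1810014B01Rik on the opposite strand.

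The groups did not overlap for the ER J proteins Dnajc10 and Dnajb9, on opposite sides, and of these Dnajc10 was called. Dnajc10 (ERdj5), which reduces disulfide bonds of misfolded proteins before their disposal, was higher in knockout livers at 18.4, 17.9 and 15.9 FPKM, against 11.8, 12.1 and 11.6 FPKM in control livers. No library overlapped, and knockout 2 was not the lowest. Dnajc10 had a log2 fold change of 0.54 ± 0.14 (limma adjusted p = 0.0214), lost without control 1, control 2, knockout 1 or knockout 2 (limma adjusted p of 0.0531 to 0.0685) and with each library rescaled to the same summed FPKM (limma adjusted p = 0.0908). Dnajb9 (ERdj4), which represses the stress sensor IRE1 through BiP, was on the other side at 38.6, 31.6 and 51.5 FPKM in knockout and 55.2, 55.7 and 57.4 FPKM in control livers. All knockouts were below all controls, but Dnajb9 did not pass the test (log2 fold change -0.49 ± 0.18, limma adjusted p = 0.0705), and was called without knockout 3 (limma adjusted p = 0.0155). The other ER members, Dnajb12, Dnajb14, Dnajc1, Dnajc14, Dnajc16, Dnajc18 and Dnajc25, overlapped between groups and were not called, with log2 fold changes of -0.26 (Dnajc25) to 0.22 (Dnajc16).

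**Figure D3:**
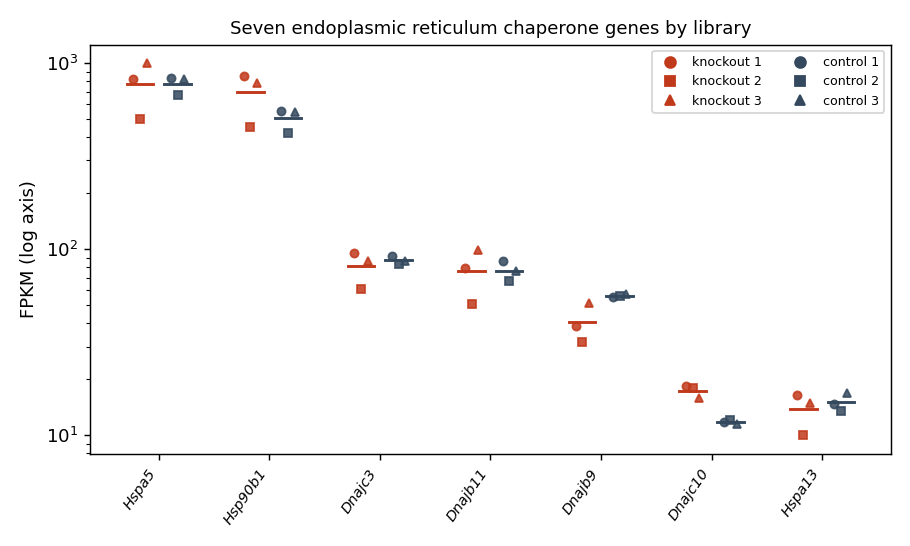
The plot shows FPKM on a log axis for 7 ER members, with knockout libraries left of control libraries, a symbol per replicate and a bar at each group mean. Knockout 2 is the lowest knockout for 6 of them, at 499 FPKM for Hspa5 against 825 and 997 FPKM in the other knockouts, and Dnajc10 is the exception.

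Knockout 2 was the lowest of the 6 libraries for 17 of the 60 tested members (28.3%), against 20.8% of all tested genes. Knockout 1 was the lowest for 16 members (26.7%), against 15.3% of all tested genes, and knockout 3 for 4 (6.67%), against 13.3%. Of the 12 members that fell, the lowest library was knockout 2 for 7, knockout 1 for 4 and knockout 3 for 1. A gene that falls tends to have its lowest value in a knockout library, and the same count over all genes called lower was not made.

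Members outside these compartments included 1 that fell. Dnajc22, a membrane J protein whose fly counterpart acts in endocytosis, measured 36.0, 38.4 and 41.1 FPKM in knockout and 62.0, 67.8 and 55.2 FPKM in control livers. The groups were well apart, with a log2 fold change of -0.67 ± 0.14 (limma adjusted p = 0.00639), and Dnajc22 was called in each fit run. Dnajc5 (cysteine string protein), a vesicle J protein, measured 17.1, 19.5 and 14.5 FPKM in knockout and 15.1, 11.5 and 14.5 FPKM in control livers, with overlap (limma adjusted p = 0.233). Dnajc13, an endosomal J protein, had 5.93, 4.47 and 5.70 FPKM in knockout and 3.97, 3.88 and 4.89 FPKM in control livers, also with overlap (limma adjusted p = 0.288). Of the members that match only by name, Hspbp1, a nucleotide exchange factor of HSP70, and Hspb11, a ciliary transport protein also known as IFT25, were tested and not called.

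The 14 members not tested include Dnajb8, Dnajc5b, Dnajc5g and Hspb3, listed at 0 in all 6 libraries. The other 10 averaged at most 0.456 FPKM (Dnajb13). Of the tested members, Hspa12b and Hspb2 reached the minimum only through their knockout libraries, and neither was called.

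Heat shock elements were searched on both strands as runs of alternating GAA and TTC units. The 3-unit form, GAA, TTC and GAA each separated by 2 bases, was found in 4 of 60 members with a window (6.67%), against 179 of 27025 genes (0.662%). The 4 were Hspd1, Hspe1 and Hsph1, which fell, and Dnajb6, which was not called. Hspd1 and Hspe1 hold the same bases, counted for each gene, and the 3-unit match of Hsph1 lies after the start. The 2-unit forms GAANNTTC or TTCNNGAA, which the 3-unit form contains, were found in 16 members (26.7%), against 4587 genes (16.97%). They were present in 7 of the 8 members that fell and have a window, the exception being Dnajb1. Dnajc22, Hsp90aa1, Hsp90ab1 and Hspa9 also fell but have no window, so they were not searched. Matches were also present in Dnajc10, which rose, in 5 members that were not called and in 3 that were not tested. Hspa1a and Hspa1b, of which only Hspa1b was called, both hold a 2-unit match. The match of Hspb8 lies after the start. The ER stress element was found in Hspa5, Hsp90b1 and Dnajc3 (5%), against 37 genes (0.137%). No match says only that these letters are not in the window, and a match describes letters in the window and is not a measured binding site.

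**Figure D4:**
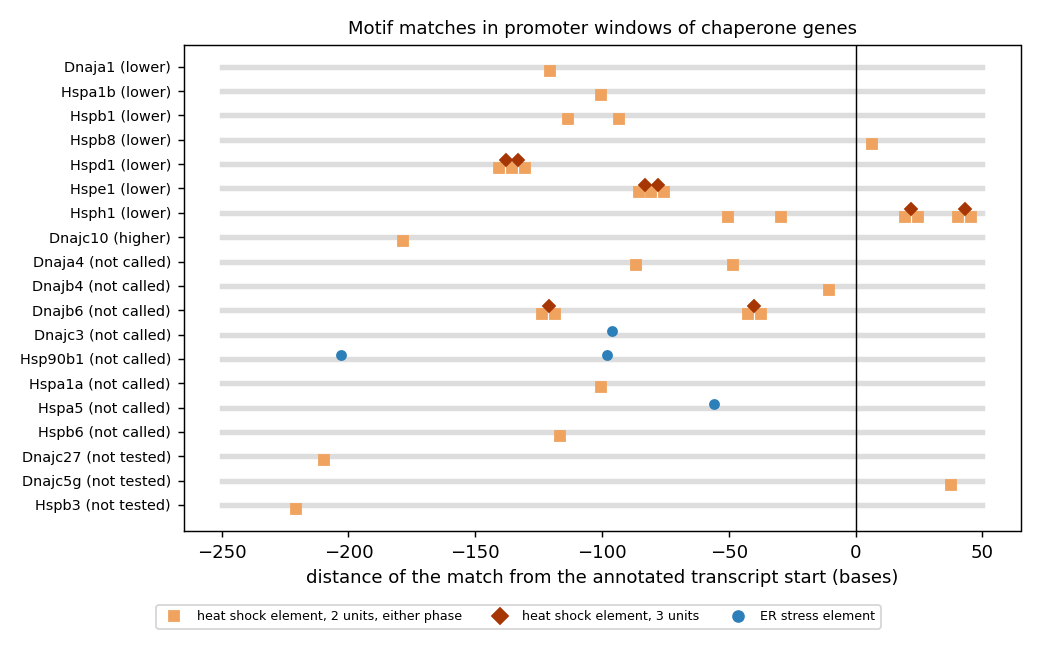
The plot marks motif matches by distance from the annotated start, in bases, for each member with a match, and Hsph1 and Dnajb6, which have several annotated starts, show each match again for each start. ER stress elements appear in 3 members, none of them called, and 3-unit heat shock elements in 4, of which 3 fell. The 3-unit matches of Hspd1 and Hspe1 are the same bases.

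Genes outside the symbol pattern that work with these chaperones were counted in lists chosen for this comparison. Of all tested genes 13.0% were lower and 14.1% higher, the background for each list with all 6 libraries. Of 18 tested HSF factors and HSF1 targets, 7 were lower and 1 higher, with a median log2 fold change of -0.31. Fkbp4, a co-chaperone that carries steroid receptors on HSP90, measured 71.4, 36.9 and 74.8 FPKM in knockout and 154, 146 and 139 FPKM in control livers. As for Hsph1, the groups of Fkbp4 did not overlap and knockout 2 was the lowest library (log2 fold change -1.32, limma adjusted p = 0.00414). Hmox1, the heme oxygenase and the only target called higher, measured 151, 162 and 217 FPKM in knockout and 37.5, 36.4 and 53.2 FPKM in control livers (log2 fold change 2.05, limma adjusted p = 1.97e-04). Hsf1 itself measured 5.24, 3.65 and 4.95 FPKM in knockout and 3.65, 4.97 and 5.05 FPKM in control livers, with overlap (log2 fold change 0.02, limma adjusted p = 0.966). The targets called lower were 3 when control 1 or control 2 was left out and 4 when control 3 or knockout 2 was left out. Genes called lower over all tested genes numbered 996, 943, 1497 and 1264 in these fits, in that order.

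For the next lists too, the shares over all tested genes were 13.0% lower and 14.1% higher with all 6 libraries and no rescaling. Of 25 co-chaperones of HSP90 and HSP70, 6 were lower and 2 higher (median -0.29). Of the 6, 5 (Ahsa1, Ahsa2, Bag3, Fkbp4 and Stip1) are also among the 7 lower HSF1 targets, so the counts are not separate. The lower co-chaperones were 3 when control 1 was left out and 2 when control 2 or knockout 2 was left out. Over all tested genes, those called lower numbered 996, 943 and 1264 in these fits, in that order. Ahsa2, an activator of the HSP90 ATPase, measured 6.76, 4.85 and 5.99 FPKM in knockout and 12.2, 12.5 and 9.86 FPKM in control livers, well apart (limma adjusted p = 0.00615). Of 14 subunits of the cytosolic chaperonin TRiC and of prefoldin, 1 was lower and none higher (median -0.20). With libraries rescaled to the same summed FPKM 6 were lower, and 2081 genes were lower over all tested genes. None of the subunits was lower without control 1, control 2 or knockout 1. Of 17 mitochondrial proteases and import proteins, 3 were lower and 1 higher (median -0.17). Trap1, the mitochondrial HSP90, was lower, like Hspd1 and Hspe1, at 38.1, 37.0 and 42.8 FPKM in knockout and 78.8, 74.4 and 71.8 FPKM in control livers, without overlap (log2 fold change -0.93, limma adjusted p = 0.00104). Of 9 J-domain and heat shock proteins whose symbols lie outside the pattern, 1 was lower, again Trap1, and 1 was higher, the secreted chaperone Clu (log2 fold change 0.61, limma adjusted p = 0.0176, lost without control 1 or knockout 3).

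Of 31 genes of ER folding and the unfolded protein response, 2 were higher and 1 lower (median -0.08), against 14.1% and 13.0% of all tested genes. Ero1l, the oxidase that drives disulfide formation, measured 22.2, 45.9 and 20.0 FPKM in knockout and 4.26, 4.62 and 5.66 FPKM in control livers, with all knockouts above all controls (log2 fold change 2.39, limma adjusted p = 5.69e-04). Herpud1, a membrane protein of ER disposal, measured 315, 204 and 307 FPKM in knockout and 576, 520 and 498 FPKM in control livers, all below (log2 fold change -0.97, limma adjusted p = 0.00474). Ppp1r15a, which restores translation after stress, was the other gene called higher (log2 fold change 0.98, limma adjusted p = 0.00491).

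**Figure D5:**
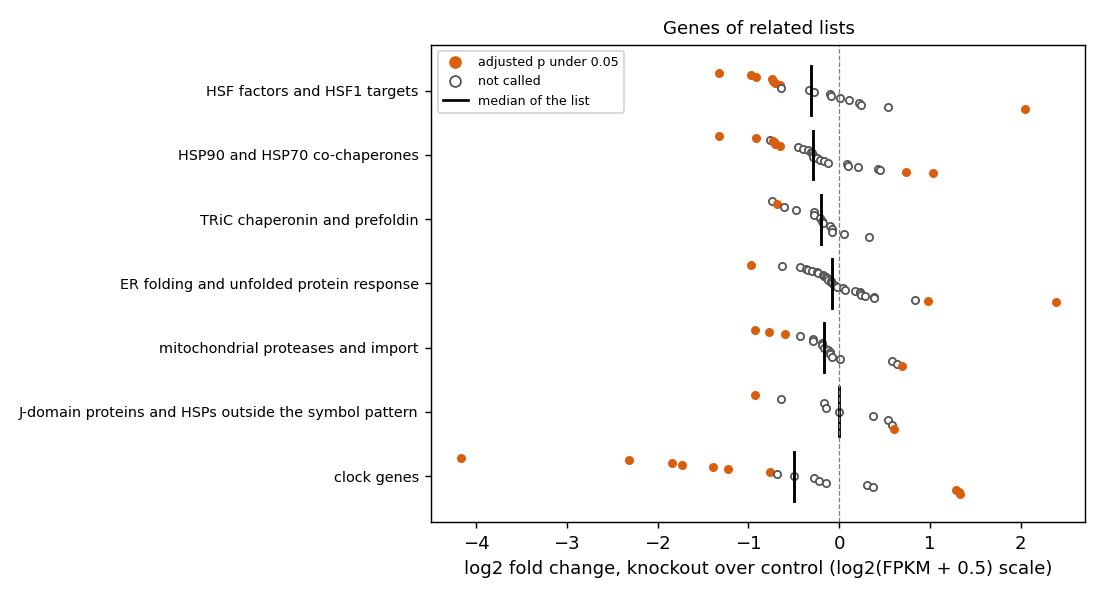
The plot shows the log2 fold change of each tested gene of 7 lists, knockout over control, with called genes filled and a bar at each list median. Medians run from -0.49 for clock genes to 0.00 for J-domain proteins and heat shock proteins outside the symbol pattern.

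Chaperone RNA varies over the day in liver, and clock genes moved with the groups. Of 17 clock genes, 7 were lower and 3 higher (median -0.49), against 13.0% and 14.1% of all tested genes. The clock output gene Dbp measured 0.307, 1.30 and 0.674 FPKM in knockout and 17.6, 19.5 and 26.7 FPKM in control livers, far apart. Sampling times are not given in the sources used here, and the part of the clock genes' difference in the chaperone values was not tested. The hepatocyte marker sum was lower in each knockout library than in any control, as were the sums of cytosolic and of mitochondrial chaperones, and that link was not tested either.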

How the data were processed

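Whole-liver RNA was sequenced as paired ends from 6 TruSeq v2 libraries, per the labels' protocols. The submitters' processing notes name Trimmomatic 0.33, TopHat2 2.1.0, Cuffnorm 2.2.1, Cuffdiff 2.2.1 and build mm9. The sources used here do not name the annotation. The authors' deposited values are FPKM per gene, and no counts or read totals are given, so no count model or counting interval was used.

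Of 24318 genes, 8986 were at 0 throughout. Alb was left out as a failed estimate, being at 0 in all controls and above 1000 FPKM in all knockouts. Groups were compared with limma 3.58.1 in R 4.3.3 (two-sided, with a variance trend on mean level) on log2(FPKM + 0.5), and the pseudocount makes fold changes of low genes smaller. The fit held 11842 genes that averaged 0.5 FPKM or more. The method was tested on simulated data. Members and lists were chosen with earlier results of these data known. Library values are given for called members that changed by at least 1 log2 unit, up to 10 other called members averaging at least 5 FPKM, the 2 most abundant members of each family and compartment, and Hspa1a, Hspa1b, Hspa5 and Hspa8, and further members given were named after their values were seen. From the other lists up to 3 called genes were eligible, or the 2 most abundant where fewer than 2 were called, and Hsf1 was added after its value was seen. Compartments follow textbook localization.

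The labels call the replicates triplicates without saying of what, so the p-values cover spread among these 3 samples a group, which may be technical. The descriptions of some, but not all, knockout samples carry a suffix whose meaning the labels do not give. Replicate numbers did not pair the samples. Alternatives were other pseudocounts, filters, scalings and variance models, a replicate block, weights per library, and 1 library left out at a time. Gene positions and overlaps come from GENCODE on GRCm38 and promoter windows from RefSeq on GRCm38.p6. Figures were drawn with matplotlib 3.10.9.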

Additional observations from a re-analysis of the deposited data

How the results depend on the processing

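Of the 14 called members, 9 (Dnaja1, Dnajb1, Dnajc22, Hsp90aa1, Hspa2, Hspb8, Hspd1, Hspe1 and Hsph1) were called under all 10 alternatives that used all 6 libraries, and 5 (Dnajc22, Hspa2, Hspb8, Hspd1 and Hsph1) also with each library left out in turn. With 1 library left out, members called lower numbered 5 to 14 and members called higher 1 to 3, and all genes called lower numbered 943 to 1497. With the same summed FPKM in each library, 1 member was called higher (Hspa2), Dnajc10 was lost, and Dnajb2, Dnajb9, Dnajc28 and Hspa8 were called lower. A fit with a replicate block called 2 members higher and 10 lower (Hsp90ab1 and Hspa9 were lost). Same-numbered libraries did not deviate together, with correlations of -0.01, -0.0001 and 0.0015 between their deviations from the group means. Upper quartile scaling turned the log2 fold change of Map3k7 to 0.0329, of Hspa5 to 0.0283 and of Dnajb11 to 0.0249, and library weights turned Hspa5 to 0.0403 and Dnajb11 to 0.0154. With 1 library left out, log2 fold changes ran from -0.0994 to 0.0621 for Map3k7, -0.27 to 0.23 for Hspa5, -0.27 to 0.21 for Dnajb11, -0.25 to 0.0616 for Dnajc3, -0.46 to 0.0215 for Dnajc30, -0.28 to 0.0616 for Hspa13 and -0.15 to 0.62 for Hspa1a. None of these was called, and the cause was not tested. Hspa1a has no value with a minimum mean of 1 FPKM. Absolute depth is unknown, so the only measure of precision for low members such as Hspb1 and Hspa1a is the spread of 3 libraries a group.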
